A study of Homo sapiens with 4 samples.

Results

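Ribosome rescue factors free ribosomes that have stopped on an mRNA, and 9 genes of this machinery were examined in OPM2, a human cell line derived from multiple myeloma, a tumour of plasma cells, among 18377 genes with a value. They were PELO and HBS1L, which recognise a stalled ribosome, ABCE1, which splits it, the translational GTPases GTPBP1 and GTPBP2, the collision sensor ZNF598, and NEMF, LTN1 and ANKZF1, which deal with the unfinished protein. The genes were chosen for this role, and PELO was selected on its log2 difference between VS-5584 and control in these same arrays, one of the lowest of all genes. All values of the 9 genes are therefore given as a description, with no test. Each gene was read from 1 probe set, a group of array probes summarised to 1 intensity, and all 9 passed the filter that left out the 40% of genes with the lowest mean (below an intensity of 48.9), as did 11026 genes in all.

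The treated group was 2 cultures given VS-5584 (SB2343), which inhibits mTOR and class I PI3 kinases, at 123 nM per the sample labels and 125 nM per the series' design text. The control group was 2 cultures given DMSO, the drug's solvent, and both groups were the same line, unmodified, harvested at 24 h. Total RNA of each culture was hybridised to its own one-colour array. OPM2 is a single line, and its cultures are labelled as biological replicates, with no word on how they were kept apart.

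When a ribosome runs into damaged or truncated mRNA, the ribosome behind collides with it, and ZNF598 marks the collided small subunits with ubiquitin. PELO, a relative of the termination factor ETF1, enters the empty decoding site with its partner GTPase HBS1L, and the ATPase ABCE1 then drives the subunits apart. NEMF holds the large subunit with its trapped chain and brings in the ubiquitin ligase LTN1, and ANKZF1 releases the tagged chain. This machinery serves every protein-making cell, and plasma cells, which secrete antibody, carry a heavy load of translation.

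The start regions of 5 of these genes are shown, that of PELO because it shares its start with another gene, and those of GTPBP1, LTN1, ABCE1 and ZNF598 because they hold a common element. RefSeq, on assembly GRCh38.p14, gives PELO and ITGA1, the integrin alpha chain gene that contains PELO, the same start. The 250 bases before the annotated start are printed 5′ to 3′ in the gene's own direction, with TGACGT, the core of the element bound by CREB and ATF factors, in capitals on either strand. The windows are chr5:52787666-52787915 on the plus strand for PELO, chr22:38705694-38705943 on the plus strand for GTPBP1, chr21:28992878-28993127 on the minus strand for LTN1, chr4:145098061-145098310 on the plus strand for ABCE1 and chr16:2009822-2010071 on the minus strand for ZNF598.
PELO: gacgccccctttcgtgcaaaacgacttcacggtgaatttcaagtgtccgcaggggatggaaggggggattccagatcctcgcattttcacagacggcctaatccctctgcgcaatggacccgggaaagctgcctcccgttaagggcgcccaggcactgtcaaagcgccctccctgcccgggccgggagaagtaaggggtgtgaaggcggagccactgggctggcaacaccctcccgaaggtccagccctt
GTPBP1: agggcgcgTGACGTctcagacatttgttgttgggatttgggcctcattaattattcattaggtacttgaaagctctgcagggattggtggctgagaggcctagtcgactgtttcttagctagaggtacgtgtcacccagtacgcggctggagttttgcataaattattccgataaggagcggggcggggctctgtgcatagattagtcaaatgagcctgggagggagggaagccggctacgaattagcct
LTN1: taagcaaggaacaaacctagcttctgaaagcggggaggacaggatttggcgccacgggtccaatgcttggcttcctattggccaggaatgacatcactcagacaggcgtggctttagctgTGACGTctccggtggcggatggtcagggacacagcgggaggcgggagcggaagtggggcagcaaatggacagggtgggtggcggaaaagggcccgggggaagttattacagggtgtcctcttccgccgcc
ABCE1: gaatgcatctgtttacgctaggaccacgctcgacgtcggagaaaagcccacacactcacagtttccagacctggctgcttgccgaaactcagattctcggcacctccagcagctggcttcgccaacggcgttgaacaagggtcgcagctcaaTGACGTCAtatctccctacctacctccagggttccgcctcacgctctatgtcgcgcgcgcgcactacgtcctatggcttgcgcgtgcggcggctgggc
ZNF598: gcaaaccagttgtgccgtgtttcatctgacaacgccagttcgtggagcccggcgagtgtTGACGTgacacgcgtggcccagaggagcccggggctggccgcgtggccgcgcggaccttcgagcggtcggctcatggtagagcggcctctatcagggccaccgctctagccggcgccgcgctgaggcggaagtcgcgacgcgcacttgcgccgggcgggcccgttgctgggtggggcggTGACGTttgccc
In ABCE1 the capitals make up TGACGTCA, the full palindromic element, which is 2 overlapping copies of TGACGT, from 98 to 91 bases before the start. GTPBP1 and LTN1 each had 1 copy of TGACGT, and ZNF598 had 2. PELO, NEMF, HBS1L and GTPBP2 had none in these windows. TGACGT thus stood before 4 of the 8 rescue factors in the RefSeq table, against 7.10% of all 35116 start windows of the same length. Of the 22199 windows of protein-coding genes, 8% had it. Rescue factors were counted by gene, with a match in any window enough, whereas these shares are by window. GTPBP2 had 2 windows. TGACGTCA stood before 1 of the 8, against 1.65% of all windows. CACGTG, CCGGAAGT and TTTCGCGC, the core letters of MYC, ETS and E2F elements, were searched on both strands as well and stood before 0 of the 8, against 6.34%, 3.42% and 0.439% of all windows. The motifs were chosen after the letters had been read, and a match is a description of the letters only. ANKZF1 was not in the table. The genes with the element were on both sides of the treatment difference: GTPBP1, LTN1 and ABCE1 had a lower mean with VS-5584 and ZNF598 a slightly higher one.

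The arrays were similar apart from 1. The median intensity over 28869 probe sets was highest on VS-5584 replicate 2, at 52.5, and lowest on control replicate 1, at 49.3. VS-5584 replicate 2 stood apart, with 1.74 log2 units between its quartiles, against 1.93 to 1.95 on the other 3 arrays. Its median gene lay -0.14 from the control mean on the log2 scale, against -0.0022 for VS-5584 replicate 1. All 8 plasma cell markers were above the filter, with intensities of 92.1 to 2481 with VS-5584 and of 106 to 2245 in control. Their summed intensities were 10011 and 8996 with VS-5584, against 8969 and 8478 in control. The 4 T cell markers and the 4 myeloid markers were all below the filter. The genes tested thus held every plasma cell marker and no T cell or myeloid marker. They also held HBB, the 1 erythroid marker measured, and 3 of the 4 stromal and epithelial markers. T cell sums were 133 and 145 with VS-5584, against 131 and 137 in control, and myeloid sums were 138 and 143 with VS-5584, against 133 and 135 in control. HBB was at 159 and 123 with VS-5584, against 155 and 145 in control. The stromal and epithelial sums, over 4 markers of which 3 passed the filter, were 252 and 229 with VS-5584, against 247 and 242 in control. The part of array quality and of these markers in the results below was not tested.

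The probe set named PELO had intensities of 111 and 51.7 with VS-5584, against 191 and 154 in control. Both treated arrays lay below both controls, and VS-5584 replicate 2 was the lowest of the 4 by a wide margin. The 51.7 on that array was near the filter's 48.9 and below the array's median of 52.5 over all probe sets. On the log2 scale the means were 6.24 ± 0.78 with VS-5584 and 7.42 ± 0.22 in control (SD, n = 2 each), a difference of -1.18 ± 0.29 (SE of the model fitted to all genes). This was 2.27-fold lower, and 3 of the 11026 genes had a more negative difference, which is the value that had drawn attention to it. The distance from the control mean was -0.63 on VS-5584 replicate 1 and -1.73 on VS-5584 replicate 2. The replicates within the treated group differed by -1.10 (replicate 2 minus 1), nearly as much as the groups did. In RNA of whole cultures, fewer cells making a transcript and less transcript per cell cannot be told apart.

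The name of this probe set rests on a single accession in the platform annotation, whereas a second probe set carries 13 accessions and is assigned to both PELO and ITGA1. That second probe set had intensities of 37.4 and 34.7 with VS-5584, against 39.8 and 39.9 in control. Its treated arrays also lay below both controls, but its log2 difference was -0.15 ± 0.13 (SE), a 1.11-fold lower level. Its mean was below the filter on dim genes, and its signal cannot be assigned to either of the 2 genes. The sign was thus shared by the 2 probe sets and the size was not. The 2 were read at unlike intensities, and the part of this in their sizes was not tested. A lower mean was common, as 62.7% of all genes tested had one and 29.2% were lower without overlap. The shared probe set was not among the genes tested.

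The place of the 1-gene probe set among the array's identifiers also goes against its name. On chromosome 5, probe set identifiers follow the strand: of the 356 in the lower run, 352 belong to genes on the plus strand, and of the 338 in the upper run, 331 belong to genes on the minus strand. PELO and ITGA1 lie on the plus strand, and all 20 identifiers nearest to the probe set shared by PELO and ITGA1 belong to plus-strand genes. All 20 identifiers nearest to the 1-gene probe set belong to minus-strand genes, MOCS2 among them. RefSeq lists an antisense RNA gene, PELO-AS1, that overlaps PELO on the minus strand. The probes' own sequences were not used here, so which transcript the 1-gene probe set reports was not tested, and its values are called those of the PELO probe set rather than of PELO mRNA.

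The genes beside PELO showed small differences. MOCS2, a molybdenum cofactor synthesis gene, had intensities of 288 and 261 with VS-5584, against 335 and 289.6 in control, a log2 difference of -0.18 ± 0.14 (SE, limma adjusted p = 0.655). Its treated arrays lay just below both controls. ITGA2, an integrin chain that binds collagen, had 99.5 and 86.1 with VS-5584, against 95.3 and 103 in control, a log2 difference of -0.10 ± 0.14 (SE, limma adjusted p = 0.805). Its groups overlapped. ITGA1 had no probe set of its own among those with 1 gene.

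**Figure D1:**
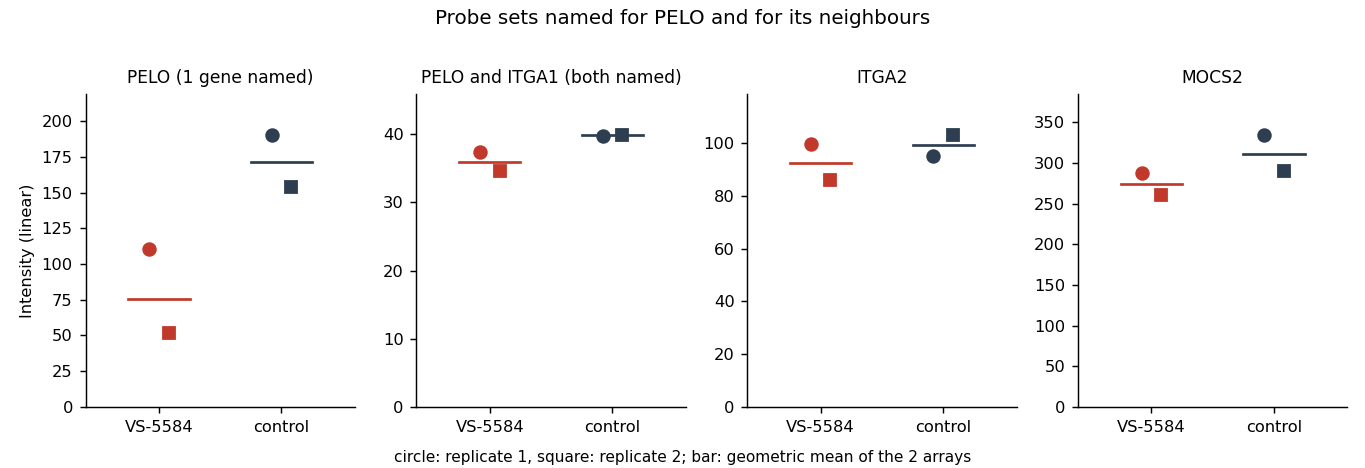
Linear intensity (y axis, a separate scale from 0 in each panel) of 4 probe sets at the PELO locus on each array, VS-5584 left and control right, with circles for replicate 1, squares for replicate 2 and a bar at the geometric mean of each group. The 1-gene PELO probe set was at 111 and 51.7 with VS-5584, against 191 and 154 in control, while the probe set shared with ITGA1 was at 37.4 and 34.7 with VS-5584, against 39.8 and 39.9 in control.

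HBS1L, the GTPase that carries PELO to the ribosome, had intensities of 1251 and 1038 with VS-5584, against 1313 and 1241 in control. VS-5584 replicate 1 lay between the controls, so the groups overlapped. The log2 difference was -0.16 ± 0.14 (SE), with -0.03 on VS-5584 replicate 1 and -0.30 on VS-5584 replicate 2. ABCE1, the recycling ATPase, had 906 and 755 with VS-5584, against 1108 and 888 in control. Here too VS-5584 replicate 1 lay between the controls, which differed from each other by -0.32 (log2, replicate 2 minus 1), more than the -0.26 ± 0.16 (SE) between the groups. The 2 partners of PELO thus had lower means by less than the PELO probe set, and in both the groups overlapped.

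GTPBP1, a GTPase related to elongation factors, had intensities of 147 and 126 with VS-5584, against 162 and 157 in control. Both treated arrays lay below both controls, and the log2 difference was -0.23 ± 0.14 (SE), which was -0.11 after median centring and -0.07 after cyclic loess. GTPBP2, its relative, whose loss in mice with a defective brain tRNA leaves ribosomes stalled, had 92.4 and 76.3 with VS-5584, against 86.3 and 88.1 in control. The treated arrays lay on either side of the controls, and the log2 difference was -0.05 ± 0.14 (SE), which turned to 0.06 when each array was centred on its median. ZNF598, the ubiquitin ligase that senses collided ribosomes, had 81.8 and 75.8 with VS-5584, against 79.5 and 72.9 in control. Its 4 values interleaved, and the log2 difference of 0.05 ± 0.13 (SE) was below its error.

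NEMF, which holds the large subunit with its trapped chain, had intensities of 434 and 394 with VS-5584, against 468 and 464 in control. Both treated arrays were lower, the controls were nearly equal, and the log2 difference was -0.17 ± 0.13 (SE), which was -0.06 after median centring and -0.01 after cyclic loess. LTN1, the ubiquitin ligase that NEMF recruits, had 249 and 172 with VS-5584, against 262 and 268 in control. It had the most negative difference after the PELO probe set, -0.35 ± 0.18 (SE), and its treated arrays were far apart, at -0.09 and -0.62 from the control mean on replicates 1 and 2. ANKZF1, which frees the chain from its tRNA, had 95.2 and 84.7 with VS-5584, against 85.6 and 91.1 in control. Its treated values lay on either side of the controls, and the log2 difference was 0.02 ± 0.14 (SE).

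**Figure D2:**
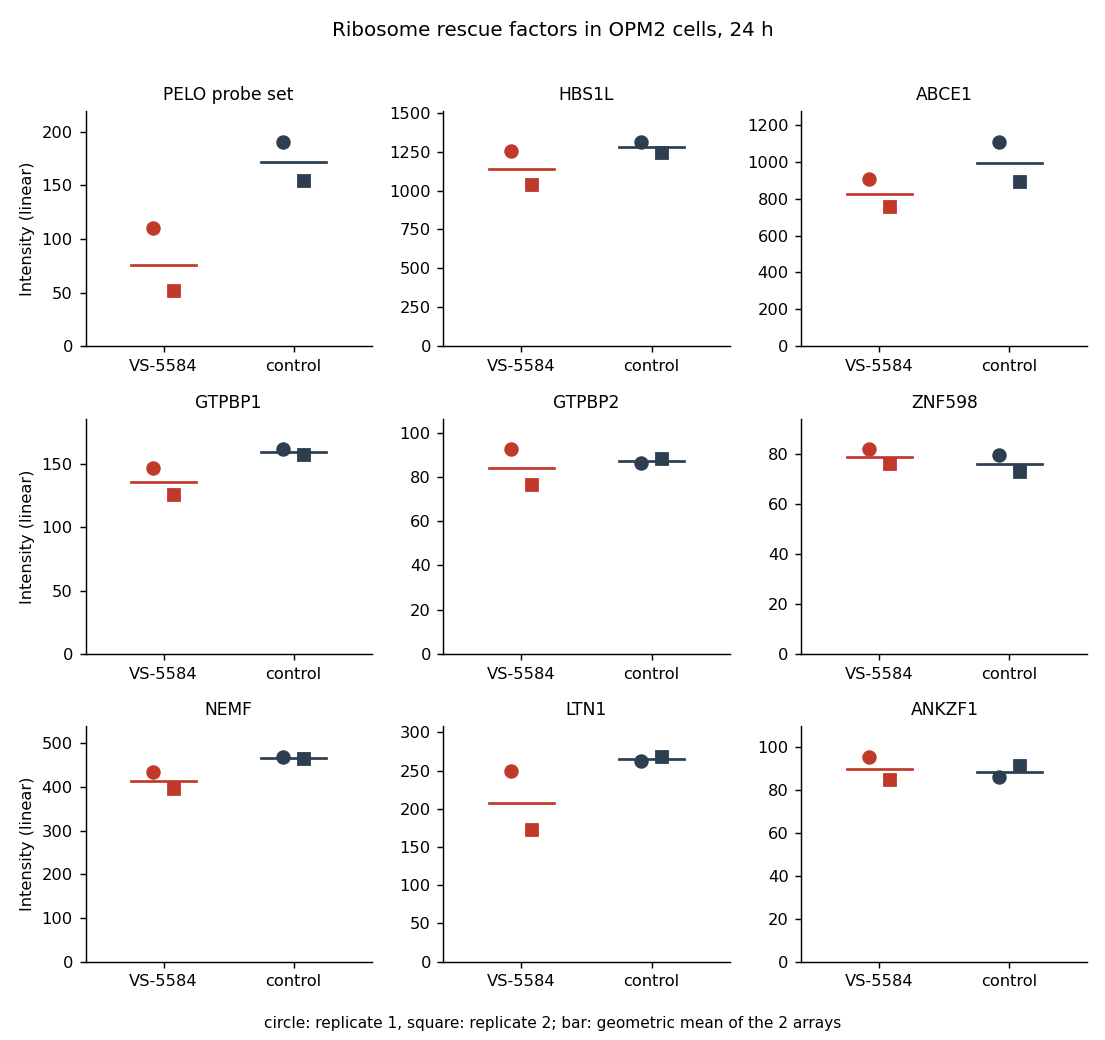
Linear intensity (y axis, a separate scale from 0 in each panel) of the probe sets of the 9 rescue factors on each array, VS-5584 left and control right, with circles for replicate 1, squares for replicate 2 and a bar at the geometric mean of each group. In those of PELO, GTPBP1, NEMF and LTN1 both VS-5584 arrays lie below both controls, and in all 9 panels VS-5584 replicate 2 lies below VS-5584 replicate 1.

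Over the 9 rescue factors, 7 had a lower mean with VS-5584 and 2 a higher one, while 62.7% of all genes tested had a lower mean. The median log2 difference was -0.17, against -0.06 over all genes tested, and it was -0.17 again without PELO. Centring each array on its median shifted all genes by 0.12 and left 6 rescue factors lower with a median of -0.06, where 40.4% of all genes were lower and their median was 0.05. After cyclic loess normalization 7 were lower with a median of -0.07, where 48.7% of all genes were lower and their median was 0.0056. The groups did not overlap in 4 of the 9, all lower with VS-5584, where 29.2% of all genes tested were lower without overlap. Higher without overlap were 0 of the 9, where 14.7% of all genes were. Without the PELO probe set, 6 of the other 8 had a lower mean and 3 were lower without overlap. The rescue factors were chosen with this contrast known, so nothing is read from these counts.

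The lower means came mainly from 1 array. On VS-5584 replicate 2, 8 of the 9 rescue factors lay below both controls, where 60.1% of all genes tested did. On VS-5584 replicate 1, 4 of the 9 did, where 34.6% of all genes did. Without the PELO probe set the counts were 7 of 8 on replicate 2 and 3 of 8 on replicate 1. The median distance of the 9 from the control mean was -0.09 on replicate 1 and -0.30 on replicate 2. Over all genes tested it was -0.0022 and -0.14, so part of the shift on replicate 2 was shared by all genes. Apart from the PELO probe set, the rescue factors lay between -0.13 (ABCE1) and 0.11 (ANKZF1) on replicate 1.

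**Figure D3:**
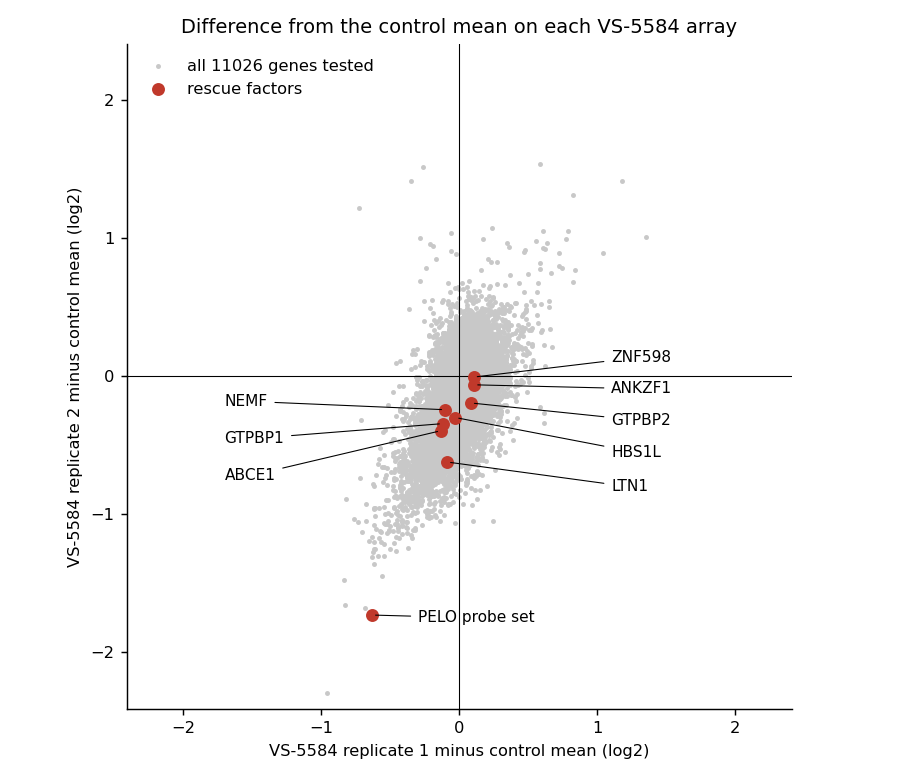
Log2 difference from the control mean on VS-5584 replicate 1 (x axis) and on VS-5584 replicate 2 (y axis), for all 11026 genes tested (grey) and the probe sets of the 9 rescue factors (red, named). The PELO probe set lies at -0.63 and -1.73, and the other 8 lie within the cloud, at -0.13 to 0.11 on replicate 1 and at -0.62 to -0.01 on replicate 2.

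The genes whose pattern over the 4 arrays was most like that of the PELO probe set were named by the smallest Euclidean distance between log2 values after each gene's control mean was taken off. These were SNORD14E, a small nucleolar RNA gene with close copies elsewhere in the genome, at a distance of 0.13, and C18orf54, at 0.33. Next were KIF15, a mitotic kinesin gene, at 0.38, SLC7A11, the cystine importer gene, at 0.39, and CENPW, a centromere protein gene, at 0.43. Their log2 differences ran from -0.99 for KIF15 to -1.24 for SLC7A11. All 5 were lower on VS-5584 replicate 2 than on VS-5584 replicate 1, as the PELO probe set was. They were picked for nearness to its values, so this and the similar differences follow from the pick. SNORD14E, the nearest, had intensities of 135 and 67.7 with VS-5584, against 229 and 205 in control. No rescue factor was among the 5, the lowest difference of these factors after the PELO probe set being -0.35, in LTN1.

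**Figure D4:**
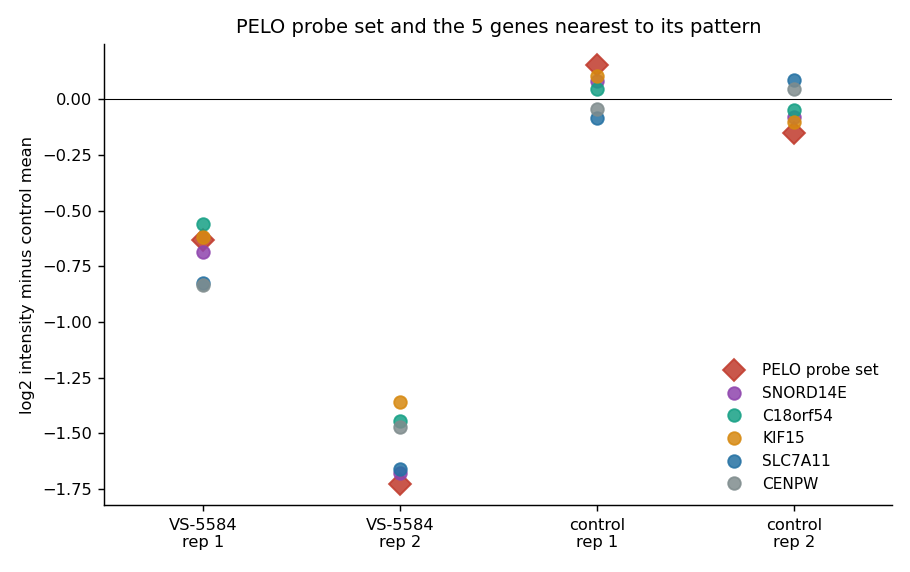
Log2 intensity minus the gene's control mean (y axis) on each of the 4 arrays (x axis) for the PELO probe set (diamonds) and the 5 genes nearest to its pattern (circles). On VS-5584 replicate 2 the 6 probe sets lie between -1.73 (PELO) and -1.36 (KIF15), and on VS-5584 replicate 1 between -0.83 (CENPW) and -0.56 (C18orf54).

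The wider machinery of translation surveillance was described with 7 lists of other genes. Of 81 genes listed, 73 were measured and 70 passed the filter. Of these 70, 57 had a lower mean with VS-5584 and 13 a higher one, with a median log2 difference of -0.18, against 62.7% lower and a median of -0.06 over all genes tested. With limma, 0 of the 70 passed an adjusted p of 0.05 in either direction, as did 0% of all 11026 genes tested. At an unadjusted p under 0.05, 9 were lower and 1 higher, where 8.93% of all genes were lower and 1.49% higher. The median over the 70 was -0.04 on VS-5584 replicate 1 and -0.30 on VS-5584 replicate 2, so these lower means too lay mostly on 1 array. Over all genes tested the medians on these arrays were -0.0022 and -0.14. Median centring and cyclic loess moved the median of all 7 lists upward, and the counts after them stand against 40.4% of all genes lower after median centring and 48.7% after cyclic loess.

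The factors of normal termination and recycling, the relatives of PELO and HBS1L among them, gave 0 of 6 genes past the threshold, with 5 lower means and a median of -0.15. ETF1, the release factor that PELO resembles, had intensities of 138 and 116 with VS-5584, against 150 and 143 in control, a log2 difference of -0.21 ± 0.14 (SE, limma adjusted p = 0.607). The HBS1L relatives GSPT1 and GSPT2, which escort ETF1, differed by -0.09 and -0.20. Both treated arrays lay below both controls in these 3 genes, by log2 gaps of only 0.06 (ETF1), 0.03 (GSPT1) and 0.02 (GSPT2). Of all genes tested, 29.2% were lower without overlap. DENR and MCTS1 act together to clear tRNA from small subunits after recycling. DENR had 201 and 200.4 with VS-5584, against 242 and 251 in control, a log2 difference of -0.30 ± 0.13 (SE, limma adjusted p = 0.471) that was -0.30 on either treated array. MCTS1 differed by -0.10 and EIF2D, a single protein with the same activity, by 0.09, and in both the groups overlapped. Median centring left 3 of the 6 lower with a median of -0.03, and cyclic loess 4 with a median of -0.02.

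Genes that sense collided ribosomes and signal from them gave 0 of 16 past the threshold, with 14 lower means and a median of -0.20. MAP3K20, the kinase ZAK that starts the ribotoxic stress response at collided ribosomes, had intensities of 93.7 and 65.0 with VS-5584, against 127 and 129 in control. Both treated arrays lay well below the 2 nearly equal controls, at -0.45 and -0.98 from their mean on replicates 1 and 2. Its log2 difference of -0.71 ± 0.18 (SE, limma adjusted p = 0.285) was the most negative of the 70 genes. OTUD3, a deubiquitinase, had 178 and 146 with VS-5584, against 199 and 218 in control, and differed by -0.37 ± 0.15 (SE, limma adjusted p = 0.445). The list's median was -0.01 on VS-5584 replicate 1 and -0.33 on VS-5584 replicate 2, and it was -0.08 after median centring, with 10 of the 16 lower, and -0.06 after cyclic loess, with 9 lower.

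Other genes of nascent chain quality control, the step of NEMF, LTN1 and ANKZF1, gave 0 of 10 past the threshold, with 9 lower means and a median of -0.19. UFD1, an adaptor of the segregase VCP that pulls tagged chains from the ribosome, had intensities of 759 and 579 with VS-5584, against 907 and 987 in control. Both treated arrays were lower, and the log2 difference was -0.51 ± 0.16 (SE, limma adjusted p = 0.369). RCHY1, a ubiquitin ligase, differed by -0.26 ± 0.13 (SE, limma adjusted p = 0.524). VCP itself had 731 and 505 with VS-5584, against 755 and 703 in control, so its groups overlapped. VCP was named after its values were seen. The list's median was 0.0080 on VS-5584 replicate 1 and -0.35 on VS-5584 replicate 2. It was -0.08 after median centring and -0.03 after cyclic loess, with 7 of the 10 lower in each.

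Cytoplasmic mRNA decay, which removes the message once the ribosome is freed, gave 0 of 20 genes past the threshold, with 17 lower means and a median of -0.21, and 14 of the 20 were lower without overlap, where 29.2% of all genes tested were. EXOSC8, a ring subunit of the RNA exosome, had intensities of 367 and 349 with VS-5584, against 552 and 474 in control, a log2 difference of -0.52 ± 0.14 (SE, limma adjusted p = 0.307). The treated arrays were close to each other and both below the controls. XRN1, the exonuclease that degrades mRNA from its 5′ end, stood on the other side. It had 761 and 676 with VS-5584, against 520 and 552 in control, a log2 difference of 0.42 ± 0.14 (SE, limma adjusted p = 0.375), with both treated arrays above both controls. The list had 13 lower genes and a median of -0.09 after median centring, and 14 lower genes and a median of -0.07 after cyclic loess.

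Nonsense-mediated decay, which destroys messages with a premature stop, gave 0 of 7 genes past the threshold, and all 7 had lower means, with a median of -0.29. SMG9 and SMG8, regulators of the kinase SMG1, differed by -0.44 ± 0.15 and -0.30 ± 0.14 (SE, limma adjusted p = 0.402 and 0.482). SMG9 had intensities of 89.9 and 70.9 with VS-5584, against 104 and 113 in control. The list had the most negative median of the 7, with -0.13 on VS-5584 replicate 1 and -0.41 on VS-5584 replicate 2, and it was -0.18 both after median centring, with 6 of the 7 lower, and after cyclic loess, with all 7 lower.

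The genes of UFMylation, which tags ribosomes stalled at the endoplasmic reticulum, gave 0 of 6 past the threshold, with 5 higher means and a median of 0.06, which was 0.18 both after median centring and after cyclic loess, with 5 higher each time. UFC1, the conjugating enzyme, had intensities of 3187 and 3343 with VS-5584, against 3014 and 2809 in control, a log2 difference of 0.17 ± 0.13 (SE, limma adjusted p = 0.665). Its treated arrays were above both controls. UFSP2, a protease that removes the tag, differed by -0.14 ± 0.15 (SE, limma adjusted p = 0.747). The list's median was 0.11 on VS-5584 replicate 1 and -0.02 on VS-5584 replicate 2.

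Rescue factors of the mitochondrial ribosome gave 0 of 5 past the threshold, with 4 lower means and a median of -0.13, which was -0.01 after median centring, with 4 lower, and 0.02 after cyclic loess, with 2 lower. MRPL58, a peptidyl-tRNA hydrolase built into that ribosome, had intensities of 433 and 394 with VS-5584, against 504 and 574 in control, a log2 difference of -0.38 ± 0.14 (SE, limma adjusted p = 0.422). MTRFR, a related release factor, differed by -0.13 ± 0.14 (SE, limma adjusted p = 0.752), and its groups overlapped. The list's median was 0.0049 on VS-5584 replicate 1 and -0.26 on VS-5584 replicate 2.

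**Figure D5:**
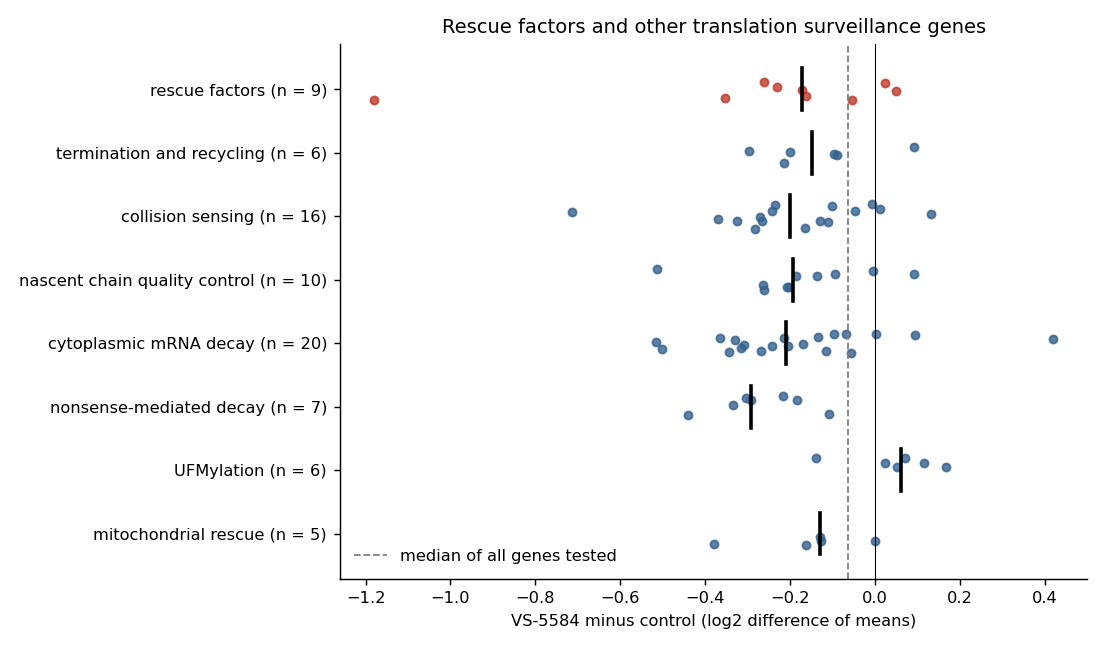
Log2 difference of means, VS-5584 minus control (x axis), for the 9 rescue factors (red) and the tested genes of 7 translation surveillance lists (blue), with a black bar at each median and a dashed line at the median of all genes tested. The medians lie between -0.29 (nonsense-mediated decay) and 0.06 (UFMylation), and the PELO probe set at -1.18 lies to the left of every other point.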

How the data were processed

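RNA of 4 OPM2 cultures (2 VS-5584, 2 control, grouped by sample title) was measured on 1-colour arrays. The deposited table gives, for 28869 probe sets, a linear intensity on each array, made by the authors with RMA, per the submitters' processing notes, without a version number. RMA values are usually log2, and how they became linear intensities, like the genome build, is unstated in the sources used here. Background calls could not be made, and precision is limited by the number of arrays.

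Values were turned into log2 and not normalized again. Names came from the platform annotation (19310 probe sets with 1 gene, 1752 with several, 7807 with none listed), and 19279 were updated through the RefSeq gene table of GRCh38.p14. Each gene kept its probe set of highest mean. Groups were compared with limma 3.58.1 (R 4.3.3), two-sided, with Benjamini-Hochberg adjustment over 11026 genes and a threshold of 0.05. The fit was tested on simulated data with planted differences and independent arrays. No simulated array stood apart as VS-5584 replicate 2 did, so that case was not tested. P-values set the difference between groups against the spread between these samples, which may be technical.

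The rescue factors, lists and motifs were chosen with earlier results of these data known. Named genes are the rescue factors, the neighbours of PELO, the 5 genes nearest to its pattern, and, as no list gene passed, the 2 genes per list that had the smallest unadjusted p (all 6 for termination). In all, 8 list genes, 1 erythroid marker and ITGA1 had no 1-gene probe set and were not analysed here. The replicate numbers, of which there are only 2, are not stated to mark a shared culture or day, and deviations from the group means correlated at 0.16 between same-numbered arrays over genes, so they were not taken as pairs. The alternatives were a replicate block, median centring, cyclic loess, 2 other filters, averaged probe sets, subtraction of 16, an intensity trend and leaving out each array. The probe set shared by PELO and ITGA1, and the rescue factors without PELO, were added after the data were seen. Figures were drawn with matplotlib 3.10.9.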

Additional observations from a re-analysis of the deposited data

How the results depend on the processing

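Read from the probe set shared by PELO and ITGA1, the log2 difference was -0.15. That of the 1-gene PELO probe set, -1.18, stayed negative in all alternatives. It ran from -1.73 to -0.63 when 1 array was left out, with -0.63 without VS-5584 replicate 2. With all arrays kept, it was -1.06 after median centring, -1.06 after cyclic loess and -1.42 after subtraction of 16. The median of the rescue factors ran from -0.30 to -0.09 with 1 array left out and from -0.18 to -0.06 otherwise. LTN1 was at -0.62 without VS-5584 replicate 1 and -0.09 without VS-5584 replicate 2. GTPBP2 turned to 0.08 without VS-5584 replicate 2, and ZNF598 and ANKZF1 turned to -0.01 and -0.06 without VS-5584 replicate 1. The median of the 70 surveillance genes, -0.18, was -0.060 after median centring and -0.036 after cyclic loess, and ran from -0.30 without VS-5584 replicate 1 to -0.037 without VS-5584 replicate 2. The limma count of 0 genes became 99 with median centring, 20 with cyclic loess, 2 after subtracting 16, 80 with an intensity trend, and 2 to 2636 with 1 array left out, the highest without VS-5584 replicate 1. With the replicate number as a block it was 432 (385 lower, 47 higher). Of the surveillance genes, 4 passed under that replicate block, MAP3K20, UFD1, EXOSC7 and EXOSC8, all lower and named after their values were seen. With 1 array left out, 0 to 22 passed, the 22, all lower, without VS-5584 replicate 1. Without either VS-5584 array the treated arm is 1 array, assumed to vary as the 2 controls do, and without replicate 1 that array is the one that stands apart, so the 22 and the 2636 compare that array with the controls. The cause of these shifts was not tested.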
